A study of Mus musculus with 6 samples.

Results

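The 34 genes described here make, take up, store and export cholesterol. They were chosen by symbol, and all 34 had a row among the 17342 named genes of the tables, with Msmo1 found under its older symbol Sc4mol. Of the 34, 19 encode enzymes of sterol synthesis, 4 control the transcription factor SREBP2, 5 act in uptake and transport inside the cell, 1 esterifies cholesterol, and 5 belong to the efflux side driven by the liver X receptors (LXR). All 34 had a mean of at least 1 FPKM (fragments counted relative to transcript length and library size) over the 6 libraries and entered the test.

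The tissue was inguinal fat, a white depot under the skin, of C57BL/6 mice aged 8 weeks, and its RNA was sequenced. Every library came from cold-stimulated fat, and no fat kept warm was analysed here. The genotypes were WT and Rarres2-/-, with 3 libraries each (WT replicates 1 to 3 and Rarres2-/- replicates 4 to 6). Rarres2 encodes chemerin, a protein secreted by fat cells. The comparison asks how its loss bears on gene expression in this depot. The deleted part of the gene, the length and temperature of the cold, and whether each library is a separate mouse are not stated by the labels, so p-values may measure only the spread between libraries. Rarres2 itself was at 436, 610 and 505 FPKM in WT and at 0.260, 6.35 and 1.41 FPKM in Rarres2-/-.

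Cells make cholesterol from acetyl-CoA. The mevalonate steps build the isoprenoid farnesyl diphosphate, and the squalene and sterol steps join 2 of these, close the rings and trim the product to cholesterol. When sterol in the endoplasmic reticulum is low, SCAP carries SREBP2 to the Golgi, where it is cut and released to activate the synthesis genes, and INSIG proteins hold the complex back when sterol is plentiful. LXRs sense oxidised cholesterol and switch on ABCA1, ABCG1 and APOE, which move cholesterol out of the cell. Fat tissue holds a large store of unesterified cholesterol in its lipid droplets and membranes.

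The promoters of the synthesis genes are shown first. Their part in the values of these genes was not tested. RefSeq promoter windows of 300 bases (250 before the start site; GRCm38.p6) were found for 27 of the 34 members. Both strands were searched for the sterol regulatory element TCACNCCAC, to which SREBP2 binds, and for CCAAT, the box of the factor NF-Y, which acts beside SREBP2 on many of its targets. CCAAT stood in 15 of the 16 synthesis enzymes with a window (93.8%), in 5 of the other 11 members (45.5%), and in 41.1% of all 27025 genes in the promoter table. The synthesis enzyme without it was Acat2. The sterol regulatory element in these exact letters stood in Hmgcs1 alone among the 27 members with a window, and in 1.44% of all genes. Fdps, Fdft1 and Sqle had no window and were not searched. An LXR element, AGGTCA repeated in the same direction after 4 bases, was in 0 of 27 members and in 4 of all genes. The letters searched are a narrow form of each element. A stretch before the start site is printed for Hmgcs1, the synthesis gene whose genotypes did not overlap, and for 4 other enzymes with CCAAT near the start site. Capitals mark TCACCCCAC and CCAAT, the latter read as ATTGG where it lies on the other strand.
Hmgcs1, chr13:119690101-119690250, plus strand: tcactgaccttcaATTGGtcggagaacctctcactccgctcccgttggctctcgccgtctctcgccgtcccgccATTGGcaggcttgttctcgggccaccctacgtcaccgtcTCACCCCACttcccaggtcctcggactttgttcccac
Mvk, chr5:114444089-114444268, plus strand: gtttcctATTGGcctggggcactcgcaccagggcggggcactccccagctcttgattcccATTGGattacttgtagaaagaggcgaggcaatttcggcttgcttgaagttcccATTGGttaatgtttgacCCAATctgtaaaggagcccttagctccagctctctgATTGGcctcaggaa
Idi1, chr13:8885486-8885605, plus strand: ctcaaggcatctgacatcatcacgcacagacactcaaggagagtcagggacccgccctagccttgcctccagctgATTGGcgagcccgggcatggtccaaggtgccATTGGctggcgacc
Lss, chr10:76531485-76531604, plus strand: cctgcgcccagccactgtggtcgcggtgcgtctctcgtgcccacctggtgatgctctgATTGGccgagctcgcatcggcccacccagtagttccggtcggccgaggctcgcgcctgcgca
Cyp51, chr5:4104698-4104817, minus strand: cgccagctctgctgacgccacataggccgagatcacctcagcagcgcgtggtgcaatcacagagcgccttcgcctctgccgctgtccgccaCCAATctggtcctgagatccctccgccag
In Hmgcs1 the sterol regulatory element lay at positions -137 to -129 from the start site. CCAAT boxes lay on the other strand at -237 to -233, -176 to -172, -45 to -41 and 10 to 14. Mvk held 5 CCAAT boxes in its window. Cyp51 and Lss held 1 each, and Idi1 held 2.

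No member passed the test between genotypes. By limma, 0 of 34 members had an adjusted p under 0.05, where 0 of the 11086 genes tested (0%) did. At an unadjusted p under 0.05 there was 1 member, Hmgcs1, against 436 of all genes (3.93%). The genotypes did not overlap in 2 members (5.88%), Hmgcs1 on the higher side in Rarres2-/- and Apoe on the lower side, against 10.3% of all genes tested (5.81% higher and 4.53% lower). Mean log2 values were higher in Rarres2-/- for 26 members and lower for 8, where 48.6% of all genes were higher. Differences are on the scale of log2(FPKM + 1), which understates the change of low genes. The plot of differences by member shows Hmgcs1 and Apoe at its ends.

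**Figure D1:**
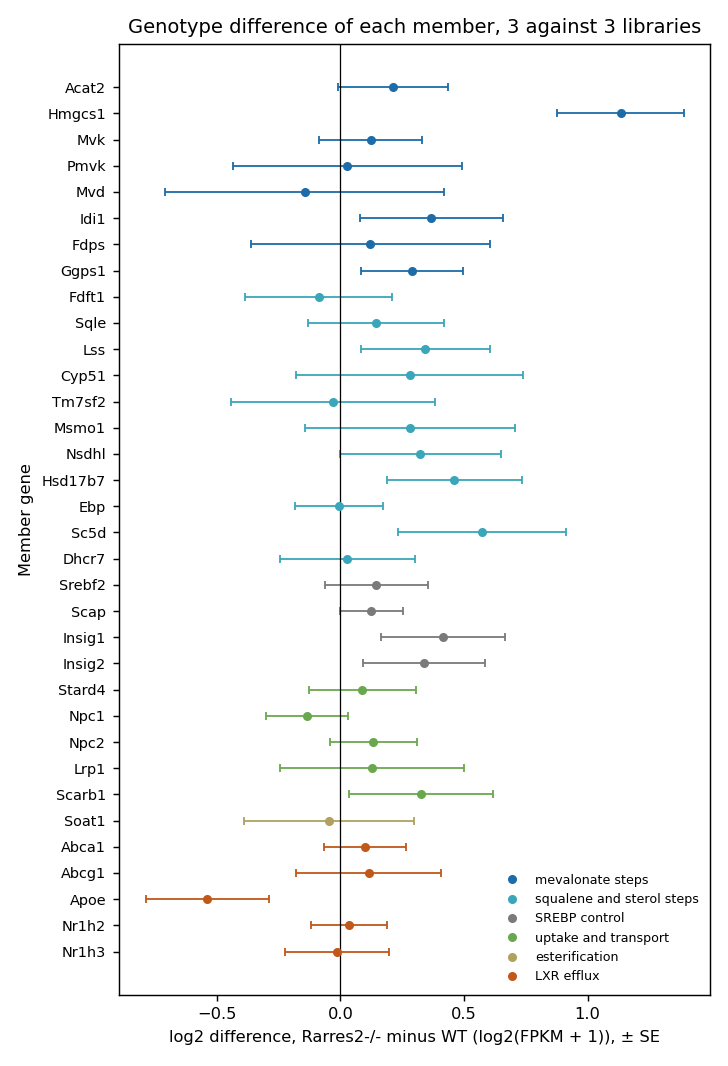
Log2 difference (Rarres2-/- minus WT, on log2(FPKM + 1)) of each of the 34 members, with bars for the standard error of the limma fit and colours for the role of the gene. Hmgcs1 lies farthest right at 1.13 and Apoe farthest left at -0.54.

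Hmgcs1 encodes the cytosolic HMG-CoA synthase, which makes the precursor of mevalonate. It lies at chr13:119690351-119708260 (GRCm38). Hmgcs1 stood at 23.2, 38.6 and 35.7 FPKM in WT and at 91.3, 60.3 and 64.6 FPKM in Rarres2-/-. Every Rarres2-/- library was above every WT library, with replicate 4 the highest of all 6. The means were 32.5 ± 8.18 and 72.1 ± 16.8 FPKM (SD, n = 3 each), 2.22 times higher in Rarres2-/-, and the log2 difference was 1.13 (SE 0.255, adjusted p = 0.939 by limma). With 1 library left out the difference ran from 0.91 to 1.27. The adjusted p by limma ran from 0.0168 to 1.0 over all alternatives. It was 0.0168 with array weights, where 13.7% of all genes were called and the log2 difference was 0.73. Without WT replicate 1 and Rarres2-/- replicate 4 the adjusted p by limma was 0.0417. There 1.62% of all genes were called, and the log2 difference was again 0.73. Those 2 libraries held the lowest and the highest Hmgcs1 value, and leaving out both was added after the data were seen.

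The rest of the mevalonate steps did not share that pattern. Fdps, which makes farnesyl diphosphate, was at 43.0, 37.8 and 32.8 FPKM in WT and at 17.7, 52.4 and 73.3 FPKM in Rarres2-/-. Its lowest and its highest value over the 6 libraries were both in Rarres2-/-, in replicates 4 and 6. Idi1, the isomerase that supplies the allylic building block of isoprenoids, was at 11.1, 17.6 and 13.8 FPKM in WT and at 11.8, 22.5 and 22.8 FPKM in Rarres2-/-, with replicate 4 inside the WT range. Mvd, the decarboxylase before it, was at 12.6, 12.4 and 5.10 FPKM in WT and at 3.04, 14.3 and 12.4 FPKM in Rarres2-/-. Both genotypes held 1 low library for Mvd. Pmvk, a kinase of the pathway, had a WT range of 47.3 to 88.5 FPKM inside a Rarres2-/- range of 30.3 to 98.5 FPKM. Acat2, the cytosolic thiolase that opens the pathway, had ranges of 58.8 to 71.7 and 55.8 to 93.2 FPKM. For mevalonate kinase, Mvk, the ranges were 15.0 to 17.0 and 12.7 to 21.4 FPKM. In all 3 genes the lowest and the highest library were both Rarres2-/-. Ggps1, which leads off the sterol route to geranylgeranyl diphosphate, had means of 8.35 ± 1.18 and 10.6 ± 2.92 FPKM (SD, n = 3 each) in WT and in Rarres2-/-. Its highest value, 13.96 FPKM, was in Rarres2-/- replicate 5.

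In the squalene and sterol steps, too, no enzyme separated the genotypes. Squalene synthase, Fdft1, which commits carbon to sterols, was at 45.0, 39.2 and 31.2 FPKM in WT and at 22.8, 42.8 and 46.7 FPKM in Rarres2-/-. The squalene epoxidase gene Sqle was at 4.33, 5.43 and 3.35 FPKM in WT and at 3.26, 7.36 and 4.67 FPKM in Rarres2-/-. Lss, which closes the rings to lanosterol, was at 5.39, 5.62 and 4.52 FPKM in WT and at 4.23, 9.34 and 7.82 FPKM in Rarres2-/-. In all 3 genes Rarres2-/- replicate 4 was the lowest library of the 6, and the highest was another Rarres2-/- library. Cyp51, the lanosterol demethylase, was at 8.25, 11.02 and 8.30 FPKM in WT and at 4.68, 19.99 and 14.5 FPKM in Rarres2-/-. Dhcr7, which makes the last reduction to cholesterol in one branch, was at 6.03, 6.67 and 5.43 FPKM in WT and at 3.63, 7.60 and 8.24 FPKM in Rarres2-/-. For both, replicate 4 lay below every WT library and replicates 5 and 6 lay above every one. Of the C4 demethylation genes, Msmo1 was at 15.6, 26.7 and 15.3 FPKM in WT and at 11.4, 31.3 and 32.5 FPKM in Rarres2-/-, and Nsdhl at 18.2, 18.7 and 14.1 FPKM and at 12.4, 25.7 and 30.2 FPKM. Replicate 4 was again the lowest library for both. With Hsd17b7, their log2 differences were 0.28, 0.32 and 0.46 in that order, and Sc5d, the C5 desaturase, one of 0.57 (SE 0.339, adjusted p = 0.999 by limma). Sc5d was at 39.5, 55.5 and 33.98 FPKM in WT and at 38.3, 83.96 and 77.7 FPKM in Rarres2-/-. The sterol reductase gene Tm7sf2 and the isomerase gene Ebp had log2 differences of -0.031 and -0.0054, both far smaller than their standard errors. Hsd17b7 had the lowest level of the enzymes, with means of 1.77 ± 0.491 and 2.91 ± 1.33 FPKM (SD, n = 3 each) in WT and in Rarres2-/-.

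**Figure D2:**
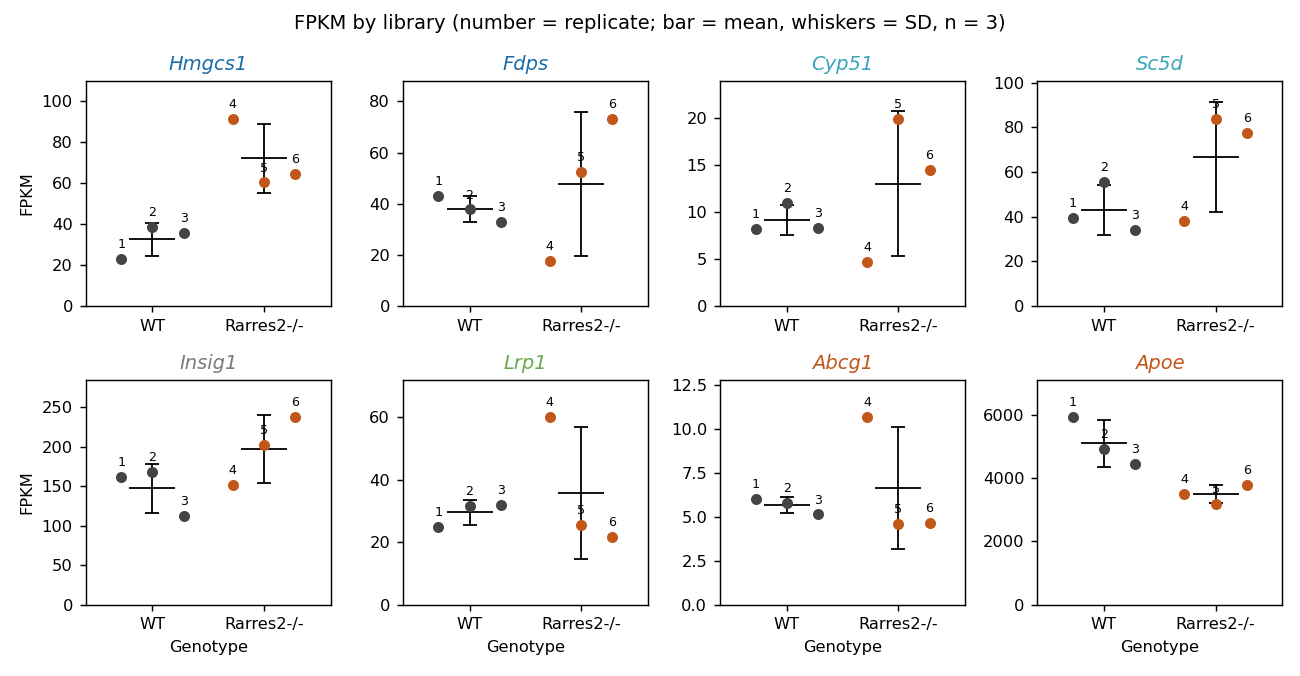
FPKM of 8 members in each library (points, numbered by replicate), with the mean and SD of each genotype (n = 3). Hmgcs1 is highest in Rarres2-/- replicate 4 (91.3 FPKM), the library in which Fdps (17.7 FPKM) and Cyp51 (4.68 FPKM) are lowest.

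Over the 19 synthesis enzymes the median log2 difference was 0.21, with 15 members higher in Rarres2-/- and 4 lower, beside a median of -0.0070 over all genes tested. That difference rests on which libraries are counted. On the log2(FPKM + 1) scale, the SD was larger in Rarres2-/- than in WT for 18 of 19 enzymes (94.7%, against 54.3% of all genes tested), Hmgcs1 being the exception on that scale. Rarres2-/- replicate 4 was the lowest of the 6 libraries for 14 of the 19 (73.7%), against 28.5% of all genes, and was the highest for 1, Hmgcs1. The highest library was Rarres2-/- replicate 6 for 11 enzymes and replicate 5 for 7. No WT library was the highest for any of them. The median deviation of the enzymes from each gene's mean was -0.07, 0.04 and -0.25 in WT and -0.42, 0.42 and 0.43 in Rarres2-/-. The Rarres2-/- libraries thus lay on both sides of WT, with WT replicate 3 the lowest of WT. Without Rarres2-/- replicate 4 the median difference was 0.53, with all 19 enzymes higher in Rarres2-/-, against 53.4% of all genes in that fit. The median difference was 0.05 without replicate 5 and 0.06 without replicate 6, with 11 higher and 8 lower in each case. In those fits 46.7% and 47.2% of all genes were higher. Without WT replicate 1 all 19 were higher, against 50.2% of all genes, at a median of 0.21. The median was 0.15 without WT replicate 3.

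**Figure D3:**
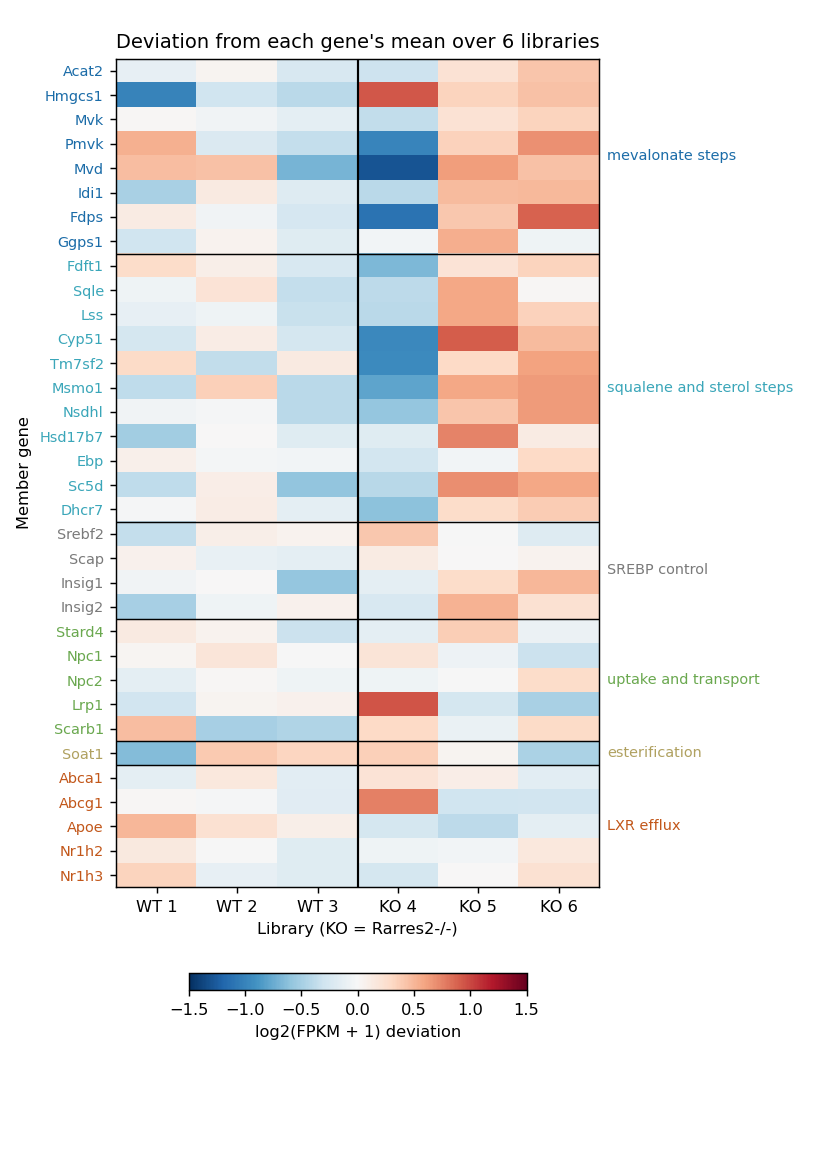
Deviation of log2(FPKM + 1) from each gene's mean over the 6 libraries, for the 34 members (rows, grouped by role) in each library (columns; KO stands for Rarres2-/-). Most synthesis enzymes are blue (low) in KO 4 and red (high) in KO 5 and KO 6, while Hmgcs1, Lrp1 and Abcg1 are red in KO 4.

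Transcript length moved with the libraries. With the tested genes split by length into 5 groups of equal size, the shortest group had a median deviation of -0.31 in Rarres2-/- replicate 4 and the longest group 0.13. In Rarres2-/- replicate 6 the same groups were at 0.19 and -0.10, and in WT replicate 1 at 0.11 and -0.06. The enzymes' longest annotated transcripts had a median of 3027 bases, within the middle group (2849 to 3832 bases). After the trend with length was removed in each library, the enzymes' median deviation in replicate 4 was -0.49 in place of -0.42. Both medians were the value of Sc5d. Most enzymes that were low in that library moved toward 0, such as Pmvk at -0.65 in place of -0.98. Others moved away from 0, such as Lss at -0.54 in place of -0.41. Replicate 4 was then the lowest library for 13 of 19 enzymes, against 23.7% of all genes with a length. The median difference between genotypes was then 0.22.

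The white adipocyte list (8 markers, all with a row) moved with the same libraries. Its summed level was 39884 to 48547 FPKM in WT, 29816 FPKM in Rarres2-/- replicate 4, and 58456 and 59766 FPKM in replicates 5 and 6. A sum is set mostly by the most abundant markers. The median deviation of the 8 markers was -0.10, -0.08 and -0.14 in WT and -0.23, 0.17 and 0.26 in Rarres2-/-. The part of this list in the enzymes' values was not tested. In bulk tissue, fewer cells of a type and less RNA per cell cannot be told apart. Other marker lists were summed in the same way. The beige and brown adipocyte sum was 704, 1218 and 1670 FPKM in Rarres2-/- replicates 4, 5 and 6. The median deviation of the beige and brown markers was 0.12, 0.08 and 0.24 in those libraries. Summed levels in WT and in Rarres2-/- ran from 1227 to 1319 and from 704 to 1670 FPKM for beige and brown adipocytes, from 35.1 to 173 and from 35.2 to 122 FPKM for endothelial cells, and from 913 to 4023 and from 1558 to 1889 FPKM for progenitors and fibroblasts. They ran from 134 to 1143 and from 237 to 388 FPKM for skeletal muscle, from 2.37 to 32.2 and from 3.96 to 17.7 FPKM for T and B cells, from 26.1 to 234 and from 39.3 to 100.6 FPKM for Schwann cells, and from 576 to 884 and from 482 to 863 FPKM for erythroid cells (3 of 4 markers with a row). No marker of these lists was at 0 in all libraries. WT replicate 1 held the highest sum of the endothelial, skeletal muscle, Schwann and erythroid lists and the lowest of the progenitor and fibroblast list. By the spacing of their lowest values, the libraries had 0.495 to 1.01 times the depth of WT replicate 2, with WT replicate 1 the shallowest. In WT replicate 1 the gene Snord2 held 62.1% of the summed FPKM. The top gene of each other library held 4.99% to 16.7%.

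The genes that control SREBP2 had small differences, all with higher means in Rarres2-/-. Srebf2, which encodes SREBP2, was at 5.81, 8.25 and 8.07 FPKM in WT and at 10.6, 7.73 and 6.64 FPKM in Rarres2-/-. It was highest in replicate 4, where most enzymes were lowest. Its escort Scap was at 11.3, 9.90 and 9.62 FPKM in WT and at 11.8, 10.8 and 11.1 FPKM in Rarres2-/-, the smallest spread of this group. Insig1 is itself a target of SREBP2 and holds it in the endoplasmic reticulum. It was at 162, 168 and 112 FPKM in WT and at 151, 202 and 238 FPKM in Rarres2-/-. The log2 difference of Insig1 was 0.42 (SE 0.251, adjusted p = 0.999 by limma). Insig2, its paralogue, was at 18.4, 25.2 and 27.7 FPKM in WT and at 22.3, 38.4 and 31.2 FPKM in Rarres2-/-. In both Insig genes replicate 4 was the lowest Rarres2-/- library but lay inside the WT range. Per length, the mean level of Insig1 over all libraries, 172 FPKM, was above that of Insig2, 27.2 FPKM.

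The 5 uptake and transport genes had a median log2 difference of 0.13, with 4 higher and 1 lower in Rarres2-/-. Lrp1, a large endocytic receptor for lipoprotein remnants, was at 25.0, 31.5 and 32.0 FPKM in WT and at 60.0, 25.4 and 21.6 FPKM in Rarres2-/-. A single library, replicate 4, set it above WT, and the log2 difference of 0.13 was -0.31 without that library. Scarb1, the receptor for high-density lipoprotein, was at 61.9, 31.2 and 32.2 FPKM in WT and at 55.1, 41.5 and 54.4 FPKM in Rarres2-/-. WT replicate 1 was its highest library, and without it the difference was 0.64 in place of 0.32. NPC2 and NPC1 pass cholesterol in turn out of the lysosome. Npc2 was at 182, 204 and 192 FPKM in WT and at 192, 200 and 244 FPKM in Rarres2-/-, and Npc1 at 8.49, 9.54 and 8.25 FPKM and at 9.63, 7.84 and 6.44 FPKM. Both overlapped between genotypes. Stard4, a sterol carrier of the cytosol, had the lowest mean level of all members, at 1.84, 1.69 and 1.08 FPKM in WT and at 1.33, 2.35 and 1.44 FPKM in Rarres2-/-. Soat1, which esterifies cholesterol for storage, was at 1.12, 3.39 and 3.18 FPKM in WT and at 3.27, 2.43 and 1.40 FPKM in Rarres2-/-. Each genotype thus held a Soat1 value below 1.5 FPKM.

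On the efflux side, Apoe stood apart from the other 4 members. Apoe, the apolipoprotein that accepts cholesterol outside the cell, had the highest level of all 34 members, with a mean of 4287 FPKM. It lies at chr7:19696244-19701310 (GRCm38). It was at 5918, 4908 and 4441 FPKM in WT and at 3490, 3194 and 3772 FPKM in Rarres2-/-. Every Rarres2-/- library was below every WT library. The means were 5089 ± 755 and 3485 ± 289 FPKM (SD, n = 3 each), 1.46 times higher in WT, with a log2 difference of -0.54 (SE 0.250, adjusted p = 0.999 by limma). With 1 library left out it ran from -0.63 to -0.43. With array weights, where 13.7% of all genes were called, the adjusted p by limma was 0.0333. In every other alternative the adjusted p by limma was at least 0.18. The longest Apoe transcript, 1408 bases, fell in the shortest length group. With the length trend removed, the log2 difference was -0.48. The deviation of Apoe in Rarres2-/- replicate 4 was then 0.0085 in place of -0.26, beside 0.088 in WT replicate 3. Macrophages also express Apoe, and all 12 macrophage markers had lower means in Rarres2-/-. Their summed level stood at 489, 2052 and 2052 FPKM in WT and at 1101, 1213 and 944 FPKM in Rarres2-/-. Apoe was highest in WT replicate 1, the library with the lowest macrophage sum. The part of macrophages in the Apoe difference was not tested.

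The exporters and receptors of the LXR group overlapped between genotypes. Abca1, which loads cholesterol onto lipid-poor apolipoprotein, was at 20.4, 25.3 and 20.1 FPKM in WT and at 26.2, 24.3 and 20.2 FPKM in Rarres2-/-. Abcg1, which exports to high-density lipoprotein, was at 6.01, 5.81 and 5.14 FPKM in WT and at 10.7, 4.61 and 4.67 FPKM in Rarres2-/-. As for Lrp1, replicate 4 was the highest library for Abcg1. The other Rarres2-/- libraries were below every WT library, and without replicate 4 the log2 difference of 0.11 was -0.24. With the length trend removed, the deviation of Lrp1 in replicate 4 was 0.80 against 0.94 before, and that of Abcg1 was 0.64 against 0.76. Endothelial markers, at 122 FPKM in replicate 4 and 35.2 and 36.4 FPKM in replicates 5 and 6, were also high in that library, and their part was not tested. In WT replicate 1 they were at 173 FPKM, with Lrp1 at its lowest WT value and Abcg1 at its highest. Nr1h3, which encodes LXR alpha, was at 74.4, 54.1 and 51.9 FPKM in WT and at 49.2, 59.4 and 69.5 FPKM in Rarres2-/-. Nr1h2, which encodes LXR beta, was at 35.4, 31.7 and 27.9 FPKM in WT and at 30.5, 30.9 and 35.6 FPKM in Rarres2-/-. Per length, LXR alpha had the higher mean level of the 2 receptors, 59.7 against 32.0 FPKM. Its lowest library, Rarres2-/- replicate 4 at 49.2 FPKM, was above the highest of LXR beta.

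Set side by side, the synthesis and uptake members (24) had a median log2 difference of 0.14, with 19 higher and 5 lower, and the LXR efflux members (5) one of 0.033, with 3 higher and 2 lower. The efflux median was -0.05 without WT replicate 3 and -0.04 without Rarres2-/- replicate 6. Within each library, the median deviation of the synthesis and uptake members minus that of the efflux members was -0.21, 0.05 and -0.08 in WT and -0.34, 0.40 and 0.52 in Rarres2-/-. The lowest and the highest of the 6 values were in Rarres2-/-. The mean of this contrast was -0.08 ± 0.127 in WT and 0.19 ± 0.463 in Rarres2-/- (SD, n = 3 each), a gap smaller than the SD in Rarres2-/-. The median of the 5 efflux genes, at -0.06, -0.04 and -0.15, did not follow that of the enzymes across the Rarres2-/- libraries. Nor did the median of the uptake genes, at 0.19, -0.07 and -0.09. Members differed within the efflux group, with Nr1h3 at -0.26, 0.008 and 0.23 and Abcg1 at 0.76, -0.30 and -0.29.

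**Figure D4:**
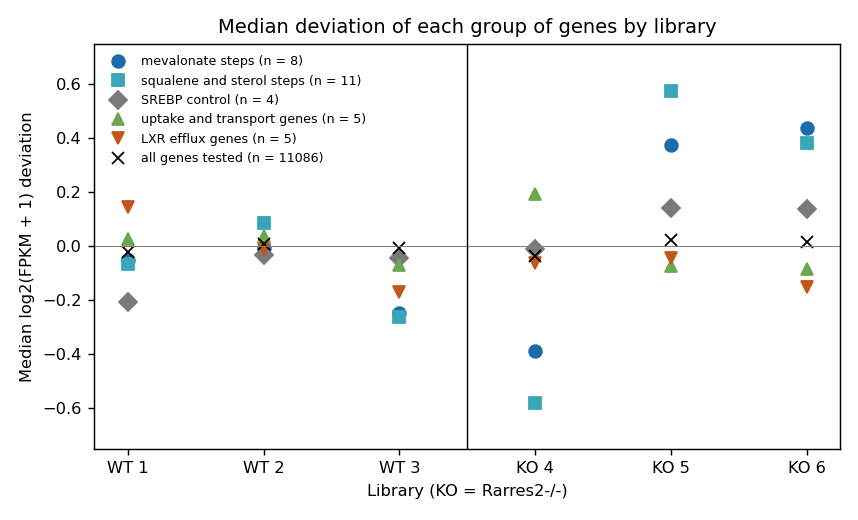
Median deviation of log2(FPKM + 1) from each gene's mean, by library (KO stands for Rarres2-/-), for 5 groups of members and for all genes tested. The mevalonate and the sterol steps are at -0.39 and -0.58 in KO 4 and between 0.37 and 0.58 in KO 5 and KO 6, while the LXR efflux genes stay between -0.17 and 0.14 in all 6 libraries.

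A further 28 genes of the pathway with a row were read from the same fit, and 23 had a mean of at least 1 FPKM. By limma, 0 of the 23 had an adjusted p under 0.05, and 1 (4.35%) an unadjusted p under 0.05, against 3.93% of all genes. Means were higher in Rarres2-/- for 13 and lower for 10, with a median log2 difference of 0.064. The gene with an unadjusted p under 0.05 was Mylip, an LXR target whose product marks lipoprotein receptors for breakdown. It was at 27.2, 21.9 and 17.1 FPKM in WT and at 17.9, 14.1 and 11.2 FPKM in Rarres2-/-. The log2 difference of Mylip was -0.58 (SE 0.233, adjusted p = 0.999 by limma), with the genotypes overlapping by 1 library on each side. The genotypes did not overlap in 1 of the 23 (4.35%, against 10.3% of all genes), Lrpap1, the chaperone of LRP1, whose WT range of 28.7 to 30.9 FPKM ended below the Rarres2-/- range of 31.4 to 33.3 FPKM. Among the synthesis and control genes outside the 34 members, 6 of 7 had higher means. Among LXR targets and partners, 3 of 7 had higher means. Apoc1, the neighbour of Apoe in the apolipoprotein cluster, was at 1094, 651 and 534 FPKM in WT and at 250, 524 and 613 FPKM in Rarres2-/-, and its genotypes overlapped. Lpcat3, a phospholipid-remodelling enzyme, was at 27.8, 33.3 and 29.7 FPKM in WT and at 27.6, 45.7 and 52.2 FPKM in Rarres2-/-, with replicate 4 the lowest library. Among the traffic and hydrolysis genes 4 of 8 were higher, and of the 3 oxysterol enzymes Cyp27a1 alone was tested, with a log2 difference of -0.13. The genes below the minimum were Abcg4, Ch25h, Cyp7b1, Gramd1c and Soat2.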

How the data were processed

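RNA-seq of cold-stimulated inguinal fat gave 1 table of gene values per library. The values are FPKM, as the authors deposited them and per the file headers. In WT replicate 3 the header gives the sample in place of a unit, and its column was read as FPKM from its scale (median of tested genes 9.23, others 9.05 to 9.37). Bowtie and mm10 are named in the submitters' processing notes. The program, annotation, strand setting and treatment of reads shared between gene copies are not stated in the labels or headers. FPKM removes depth, so counting intervals cannot be given. The spacing of values below 0.15 FPKM put depths at 0.495 to 1.01 times that of WT replicate 2. Rows with no symbol (0.793% to 4.91% of summed values) were left out.

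The 11086 genes whose mean reached 1 FPKM were tested on log2(FPKM + 1) with limma 3.58.1 in R 4.3.3 (two-sided, trend, Benjamini-Hochberg over all, threshold 0.05). Members and lists were chosen with earlier results of these data known. The genes given with every library's value were the key enzymes, all control, uptake, esterification and efflux members, and any whose genotypes did not overlap or whose unadjusted p was under 0.05, with a few others chosen after their values were seen (Mvd, Sc5d, Msmo1, Nsdhl, Apoc1, Lpcat3). Of the other pathway genes, Marchf6 was not analysed here, and 1 is not reported here. For length, the longest transcript of a symbol in GENCODE M21 was taken (94.6% of tested genes). Coordinates and promoters are RefSeq's on GRCm38, the assembly that mm10 names. The alternatives are named in the closing section.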

Additional observations from a re-analysis of the deposited data

How the results depend on the processing

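No paired analysis was possible because WT and Rarres2-/- share no sample numbers. The fit was repeated with each library left out, with array weights, with no trend, with no filter or at least 5 FPKM in 3 libraries, with a pseudocount of 0.1, and under quantile normalization, scaling without the 20 most abundant genes and upper-quartile scaling. Removal of the length trend, and leaving out WT replicate 1 and Rarres2-/- replicate 4 together, were added after the data were seen. The count of genes called (0) was 1 with upper-quartile scaling, with scaling without the 20 most abundant genes and with at least 5 FPKM in 3 libraries, 0 to 1 with 1 library left out, 1524 (13.7%) with array weights, whose estimate stopped before its tolerance, and 177 (1.62%) without the 2 libraries. Members called (0) were 8 with array weights (Hmgcs1, Lss, Cyp51, Nsdhl, Hsd17b7, Sc5d and Insig2 higher and Apoe lower in Rarres2-/-) and 1, Hmgcs1, without the 2 libraries, where the enzymes' median was 0.58. The weights were 0.179 for Rarres2-/- replicate 4 and 6.19 for replicate 5. With 1 library left out, medians ran from 0.046 to 0.53 for the enzymes, 0.094 to 0.19 for uptake and transport and -0.051 to 0.11 for LXR efflux. The sign of 17 members held in each of those fits, and that of the other 17 did not: Mvk -0.017 to 0.34, Pmvk -0.31 to 0.53, Mvd -0.53 to 0.46, Fdps -0.29 to 0.70, Fdft1 -0.28 to 0.23, Sqle -0.11 to 0.38, Cyp51 -0.11 to 0.84, Tm7sf2 -0.34 to 0.44, Ebp -0.16 to 0.13, Dhcr7 -0.16 to 0.34, Srebf2 -0.023 to 0.28, Stard4 -0.074 to 0.19, Lrp1 -0.31 to 0.40, Soat1 -0.39 to 0.18, Abcg1 -0.24 to 0.29, Nr1h2 -0.051 to 0.11 and Nr1h3 -0.13 to 0.15. Signs also turned with array weights for Mvd (0.61), Fdft1 (0.24), Tm7sf2 (0.43), Ebp (0.023), Srebf2 (-0.065), Lrp1 (-0.29), Abcg1 (-0.19) and Nr1h3 (0.16), with quantile normalization for Pmvk (-0.040), and with the length trend removed for Ebp (0.024) and Nr1h3 (0.00058). Without the 2 libraries they turned for Mvd (0.66), Fdft1 (0.34), Tm7sf2 (0.58), Ebp (0.17), Srebf2 (-0.17), Lrp1 (-0.42), Abca1 (-0.025), Abcg1 (-0.20) and Nr1h3 (0.27). The cause was not tested. Hmgcs1 stayed above 0 and Apoe below 0 in every alternative. Their genotypes did not overlap, so no fit with libraries left out could turn either sign. Other members, such as Acat2, Idi1 and Sc5d, also kept their sign in every alternative.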
